A study of Homo sapiens with 8 samples.

Results

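The response of wild-type (WT) CHP212 cells to Nutlin-3a was read from 4 of the 8 poly(A) RNA libraries of the study, namely 2 from cells given Nutlin-3a at 10 uM for 12 h and 2 from cells given DMSO, the solvent, at 0.2%. CHP212 is an established human neuroblastoma line, and the WT cells are labelled as having no genetic modification. The other 4 libraries came from cells of the same line labelled as knocked out for FAM193A (KO) and given the same agents, and they entered the common fit. Members were all genes with 10 or more reads in at least 2 of the 4 WT libraries, which made 15152 of 25369 listed genes, and all 15152 passed the filter on low counts. Another 727 genes passed it without meeting that rule, so that 15879 genes were tested. The series' design text calls the 2 replicates of a group independent biological ones, all of 1 cell line, so the p-values measure the spread between cultures of that line. Where a gene has a pair of values in a group, the first belongs to replicate 1 and the second to replicate 2.

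The p53 protein is a transcription factor that stops the cell cycle, starts apoptosis or changes metabolism after stress. In unstressed cells the ubiquitin ligase MDM2 binds p53, blocks it and marks it for destruction, and the MDM2 gene is itself a p53 target, which closes a negative feedback loop. Nutlin-3a fills the pocket of MDM2 that holds p53, and so frees p53 without damage to DNA. Many genes that fall after p53 activation are cell cycle genes, which the p21 protein (CDKN1A) brings under the RB and DREAM repressor complexes through E2F and CHR promoter elements.

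Totals in the 4 WT libraries ran from 28390405 to 31256915 reads. Levels are given in CPM, the read count over the TMM-scaled library total, which is relative to all RNA in the library, or in RPKM, which also divides by gene length and serves to compare genes. Replicates differed by more than counting noise, with a chi-square per gene of 2.67 between the DMSO libraries and 8.81 between the Nutlin-3a libraries, so each library was counted separately. A few genes had far more reads in 1 replicate than in the other of its group (at least 20 reads and over 8 times the reads of the other replicate plus 1). There were 20 such genes in DMSO replicate 2, such as COL1A2 with 13 and 268 reads under DMSO and 0 under Nutlin-3a, and none of the 20 was called. Nutlin-3a replicate 1 held 44, of which 12 were tested and 2 were called, among them the growth factor receptor gene FGFR2 with 1 and 0 reads under DMSO and 113 and 6 under Nutlin-3a (edgeR adjusted p = 0.0437). These genes were chosen for that pattern and are not described as part of the response. Replicate agreement was therefore required of every gene named by rule: both replicates of each group within 1.5-fold, and no overlap between the groups. Of 9307 called genes, 8839 met this and 468 did not. Where genes named by rule are said below to have groups that do not overlap, the rule required it, and it is not a result. Genes outside the naming rule, such as members that moved against their list, were chosen after their values were seen.

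The neuroblastoma label was checked against marker genes. HAND2, a transcription factor of the sympathetic lineage, was read in every library, at 251 and 242 RPKM under DMSO and 243 and 239 RPKM under Nutlin-3a. MYCN, the oncogene amplified in many neuroblastomas, was among the most abundant transcripts, ranked 31 and 33 by RPKM under DMSO and 79 and 73 under Nutlin-3a. Other markers were near 0: DBH, the enzyme that makes noradrenaline, had 19 and 11 reads under DMSO and 10 and 26 under Nutlin-3a, and the granule protein gene CHGB had 8 and 5, then 4 and 2. Of 28 markers of other lineages, 3 matrix genes of fibroblasts (COL1A1, COL3A1 and LUM) were above 1000 reads. The other 25 summed to between 453 and 638 reads a library, and 8 to 12 of the 28 were at 0. The T cell gene CD3E, the fetal globin gene HBG1, the melanocyte gene TYR and the muscle genes MYH7 and MYOD1 were at 0 in all 4 libraries.

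Nutlin-3a changed 9307 genes (58.6% of those tested) in WT cells by edgeR's quasi-likelihood test with Benjamini-Hochberg adjustment at a threshold of 0.05. Of these, 4673 were higher (29.4%) and 4634 lower (29.2%). Most changes were small, with a median absolute log2 fold change of 0.35 over all tested genes, and 2234 called genes (14.1%) changed at least 2-fold, 1318 upward (8.3%) and 916 downward (5.77%). Large changes were more often rises: 505 genes rose and 156 fell at least 4-fold, and 177 rose and 11 fell at least 16-fold. In bulk RNA, fewer cells with a transcript and less of it per cell cannot be told apart. Genes that rose at least 2-fold held 1.79% and 1.78% of reads under DMSO and 6.28% and 6.43% under Nutlin-3a, and those that fell at least 2-fold held 5.41% and 5.44%, then 2.0% and 1.99%. The groups of 2 libraries did not overlap for 12094 genes (76.2%).

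The share of genes that rose at least 2-fold went with the level. When tested genes were split into 5 equal bins by mean RPKM over the WT libraries, 17.1% of the lowest bin (up to 0.767 RPKM) rose and 7.43% fell at least 2-fold. In the highest bin (24.4 RPKM and more) the shares were 3.9% and 4.63%. The median log2 fold change ran from 0.20 in the lowest bin to -0.10 in the highest, and the median SE from 0.44 to 0.05.

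**Figure D1:**
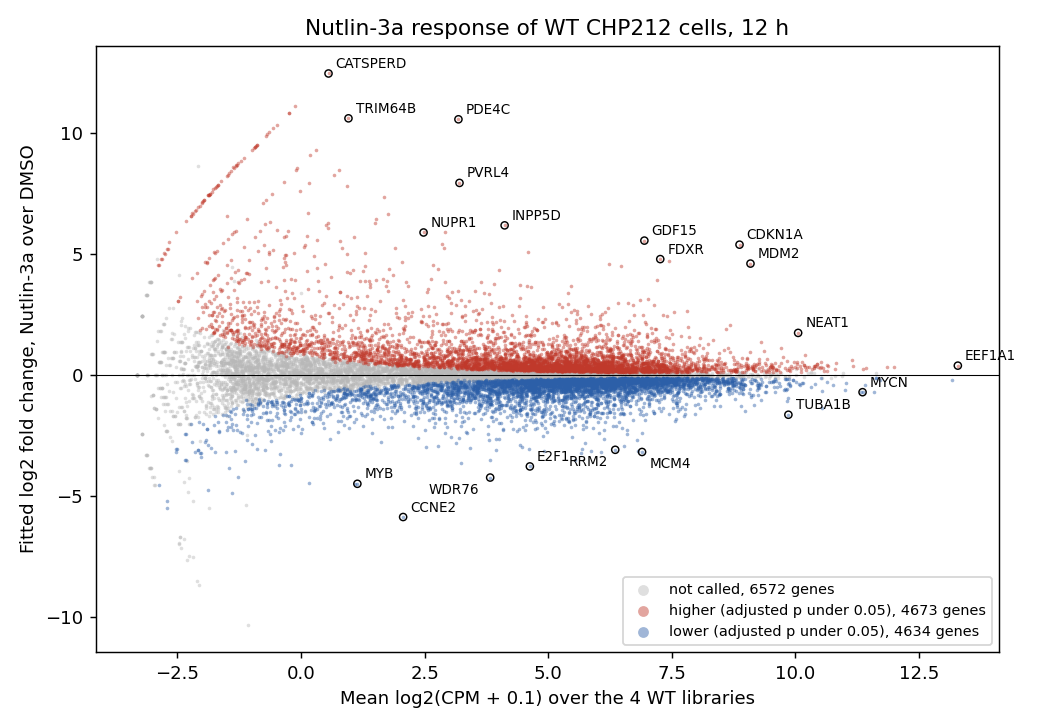
Each point is 1 of 15879 tested genes, with its mean log2(CPM + 0.1) over the 4 WT libraries on the horizontal axis and its fitted log2 fold change, Nutlin-3a over DMSO, on the vertical axis; red and blue mark genes called higher (4673) and lower (4634). CDKN1A and MDM2 stand far above other genes of their level, and the lines of points at the upper left are genes with few or no DMSO reads, whose fitted values depend on the prior count.

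Most genes listed for feedback on p53 rose. A feedback role was not tested for any member, and the list is broad, since it holds the death receptor gene TNFRSF10B. Of 14 genes listed for feedback on p53, 11 were higher, 1 was lower and 10 rose at least 2-fold. Their median log2 fold change was 1.57 beside 0.02 over all tested genes, of which 29.4% were higher and 29.2% lower. The p53 lists share members, so their counts are not separate: TNFRSF10B and PHLDA3 are also among the apoptosis genes, and PPM1D and CCNG1 among the arrest genes. MDM2, the main brake on p53, stood at 113 and 108 CPM under DMSO and 2622 and 2772 CPM under Nutlin-3a (log2 fold change 4.61, SE 0.06, edgeR adjusted p = 7.4e-21). TP53INP1, which drives p53 phosphorylation and autophagy, stood at 18.1 and 19.3 CPM under DMSO and 404 and 438 CPM under Nutlin-3a (log2 fold change 4.49, SE 0.06). PHLDA3, an inhibitor of AKT signalling, stood at 39.6 and 37.7 CPM under DMSO and 302 and 269.8 CPM under Nutlin-3a (log2 fold change 2.89, SE 0.07). In these 3 genes the Nutlin-3a libraries lay far above the DMSO libraries. Among members added after their values were seen, the p53 phosphatase gene PPM1D rose (1.93, SE 0.05), as did the p53 relative TP73 (2.33, SE 0.38), which had 8 and 9 reads under DMSO and 43 and 42 under Nutlin-3a. The ligase genes RFWD2 (-0.06, adjusted p = 0.351) and RCHY1 (0.11, adjusted p = 0.167) were not called by edgeR, and WRAP53, a telomerase cofactor gene, was lower (-0.92).

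Genes for p53 relatives and for modifiers of the protein were higher in 6 of 22 tested cases (27.3%, near the 29.4% of all tested genes) and lower in 11 (29.2% of all tested genes were lower). SMYD2, a methyltransferase that restrains p53, stood at 57 and 56.4 CPM under DMSO and 35.8 and 34.8 CPM under Nutlin-3a (log2 fold change -0.68, SE 0.06), and SETD8, which also methylates p53, at 104 and 109.7 CPM under DMSO and 81.1 and 78.5 CPM under Nutlin-3a (log2 fold change -0.42, SE 0.05). Added after its values were seen, CDKN2A, the locus of p16 and of the MDM2 inhibitor p14ARF, had 15 and 19 reads under DMSO and 32 and 34 under Nutlin-3a (log2 fold change 0.97, SE 0.27).

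Arrest genes rose in 12 of 14 cases, all 12 at least 2-fold (median 1.69). CDKN1A, which encodes the cyclin-dependent kinase inhibitor p21, stood at 26.5 and 26.8 RPKM under DMSO and 1150.2 and 1092 RPKM under Nutlin-3a, and its rank by RPKM went from 2987 and 2953 to 52 and 45. The log2 fold change was 5.39 (SE 0.06, edgeR adjusted p = 4.1e-21). BTG2, an antiproliferative regulator of mRNA decay, stood at 15.4 and 14.9 CPM under DMSO and 373 and 361 CPM under Nutlin-3a (log2 fold change 4.60, SE 0.09), and the growth arrest gene GADD45A at 90.1 and 89.9 CPM under DMSO and 586 and 529 CPM under Nutlin-3a (log2 fold change 2.63, SE 0.05). All 3 genes had both Nutlin-3a libraries far above both DMSO libraries. The 2 members that fell were GTSE1 (-1.38), a mitotic protein that moves p53 out of the nucleus, and RPRML (-2.24), whose replicates did not agree within 1.5-fold.

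Most death genes rose, with 17 of 21 tested apoptosis genes higher, 2 lower and 13 up at least 2-fold (median 1.46). BBC3, which encodes the BH3-only killer PUMA, stood at 12.8 and 14.1 CPM under DMSO and 105 and 100.6 CPM under Nutlin-3a (log2 fold change 2.94, SE 0.08), and FAS, a death receptor, at 7.13 and 7.09 CPM under DMSO and 63 and 64.8 CPM under Nutlin-3a (log2 fold change 3.17, SE 0.08). TP53I3, an oxidoreductase linked to oxidative stress, stood at 34.3 and 33.8 CPM under DMSO and 906 and 879.5 CPM under Nutlin-3a (log2 fold change 4.71, SE 0.06). As the naming rule required, no library of 1 group reached the other in these 3 genes. Other members were added after their values were seen. APAF1, the scaffold of the apoptosome, rose (1.97, SE 0.08), as did the pore-forming BAX (1.62, SE 0.06) and PMAIP1, which encodes NOXA (1.02, SE 0.05). The decoy receptor gene TNFRSF10C had 2 and 1 reads under DMSO and 60 and 52 under Nutlin-3a. The BH3-only genes BCL2L11 (-0.75, SE 0.08) and BID (-0.48, SE 0.06) were the 2 that fell, and TP53AIP1, with 6 and 2, then 1 and 9 reads, was not called.

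Repair genes linked to p53 split: 6 of 14 rose (42.9%, beside 29.4% of all tested genes), all at least 2-fold, and 4 fell (median 0.10). The share that fell, 28.6%, was near the 29.2% of all tested genes. RRM2B, the p53-inducible subunit of ribonucleotide reductase, stood at 39.9 and 38.8 CPM under DMSO and 333 and 342 CPM under Nutlin-3a (log2 fold change 3.10, SE 0.05). DDB2, which recognises UV lesions, stood at 20.9 and 21.7 CPM under DMSO and 106 and 102 CPM under Nutlin-3a (log2 fold change 2.29, SE 0.06). Added after their values were seen, XPC, another damage sensor (1.74, SE 0.05), and the bypass polymerase gene POLH (2.18, SE 0.06) also rose. Others did not rise: the flap nuclease gene FEN1 fell by 2.19 on the log2 scale (SE 0.05). PCNA, the sliding clamp of DNA polymerases, stood at 279 and 293 CPM under DMSO and 275 and 244 CPM under Nutlin-3a (log2 fold change -0.14, SE 0.05, edgeR adjusted p = 0.0317). The ligase gene LIG1 was not called (0.02, SE 0.05, edgeR adjusted p = 0.785).

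Metabolic and redox genes rose in 20 of 23 cases, 16 of them at least 2-fold, and 1 fell (median 1.82). FDXR, the mitochondrial ferredoxin reductase that feeds electrons into steroid and iron-sulfur cluster synthesis, stood at 11.9 and 11.2 RPKM under DMSO and 323 and 321 RPKM under Nutlin-3a (log2 fold change 4.79, SE 0.06). GLS2, a mitochondrial glutaminase, stood at 1.15 and 1.37 CPM under DMSO and 29.2 and 29.8 CPM under Nutlin-3a (log2 fold change 4.55, SE 0.14). The DMSO and Nutlin-3a libraries were far apart in both genes. The sestrin gene SESN1, a brake on mTOR added after its values were seen, had DMSO values 1.34 times apart (14.3 and 10.6 CPM under DMSO and 157 and 159 CPM under Nutlin-3a), with a log2 fold change of 3.66 (SE 0.10). LPIN1, a phosphatidate phosphatase, was the member that fell (-0.39).

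Autophagy and lysosome targets of p53 had a median nearer 0, with 11 of 16 higher, 3 lower and 3 up at least 2-fold (median 0.37). With DMSO replicate 2 and Nutlin-3a replicate 1 both left out, 1 was lower. DRAM1, a lysosomal membrane protein that promotes autophagy, stood at 12.2 and 13.9 CPM under DMSO and 136 and 137 CPM under Nutlin-3a (log2 fold change 3.39, SE 0.07). ATG4A, a protease of the autophagosome pathway, stood at 7.89 and 7.76 CPM under DMSO and 16.6 and 16.6 CPM under Nutlin-3a (log2 fold change 1.09, SE 0.10). Among 29 lysosomal genes outside that list, 15 rose (51.7%, beside 29.4% of all tested genes) and 9 fell, 1 of them at least 2-fold (median 0.17). The share that fell, 31.0%, was near the 29.2% of all tested genes. ATP6V0A1, a proton pump subunit, stood at 60.6 and 61.3 CPM under DMSO and 105 and 105 CPM under Nutlin-3a (log2 fold change 0.78, SE 0.05), whereas the alpha-galactosidase gene GLA stood at 34.4 and 31.7 CPM under DMSO and 17.1 and 15.5 CPM under Nutlin-3a (log2 fold change -1.02, SE 0.08).

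Membrane, adhesion and signalling targets rose in all 22 tested cases, each at least 2-fold (median 1.91), and the replicates of CD82 did not agree within 1.5-fold. EDA2R, a receptor of the tumour necrosis factor family, stood at 5.85 and 5.93 CPM under DMSO and 79.3 and 74.7 CPM under Nutlin-3a (log2 fold change 3.71, SE 0.09). PLXNB3, a semaphorin receptor, stood at 6.57 and 6.64 CPM under DMSO and 79.9 and 89.8 CPM under Nutlin-3a (log2 fold change 3.68, SE 0.08), and SYTL1, a vesicle trafficking protein, at 0.657 and 0.456 CPM under DMSO and 20.7 and 22 CPM under Nutlin-3a (log2 fold change 5.24, SE 0.20). Transcription and ubiquitin targets rose in 20 of 21 cases, 17 at least 2-fold (median 1.58). NOTCH1, a receptor that becomes a transcription factor, stood at 118 and 111 CPM under DMSO and 407 and 489.9 CPM under Nutlin-3a (log2 fold change 1.97, SE 0.08). TRIM22, an antiviral ubiquitin ligase, had 35 reads in each DMSO library and 422 and 468 under Nutlin-3a (log2 fold change 3.69, SE 0.18). The export receptor gene XPO1 was the member that fell (-0.52). Since these 8 lists were drawn from known p53 targets with earlier results of these data known, their direction is not independent evidence.

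The largest rises were in genes that WT cells barely transcribed under DMSO. CATSPERD, a sperm calcium channel subunit, had no reads in either DMSO library and 614 and 638 under Nutlin-3a, at least 424-fold higher with the DMSO group set to its floor of 3 reads. TRIM64B had 0 and 1 reads, then 971 and 917, although near-identical TRIM64 copies can share its reads. SLC52A1, a riboflavin transporter, had 0 and 1, then 366 and 386. In these 3 genes no DMSO library held more than 1 read. CYP4F3, a fatty acid hydroxylase, had 1 and 2, then 534 and 587, with CYP4F2 as a close paralog that can share them, and RFPL4B had 1 and 2, then 516 and 456.

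Among genes with more reads, PDE4C, a phosphodiesterase that degrades cAMP, had 6 and 5 reads under DMSO and 8394 and 8406 under Nutlin-3a (log2 fold change 10.57, SE 0.15, edgeR adjusted p = 6.2e-17). PVRL4, now named NECTIN4, an adhesion protein of epithelia, had 19 and 13, then 4242 and 3583 (log2 fold change 7.94, SE 0.12). FRMPD2, a scaffold protein, had 7 and 10, then 858 and 850 (log2 fold change 6.65, SE 0.20). In each of these genes both Nutlin-3a libraries lay far above both DMSO libraries. INPP5D, the phosphatase SHIP1 of blood cells, stood at 1.97 and 2.0 CPM under DMSO and 144 and 146 CPM under Nutlin-3a (log2 fold change 6.19, SE 0.08), and NUPR1, a stress-induced chromatin protein, at 0.789 and 0.562 CPM under DMSO and 42 and 39 CPM under Nutlin-3a (log2 fold change 5.89, SE 0.14). RRAD, a small GTPase that acts on calcium channels, stood at 3.94 and 4.21 CPM under DMSO and 144 and 131 CPM under Nutlin-3a (log2 fold change 5.08, SE 0.10). ELOVL2, an elongase of polyunsaturated fatty acids, had 11 reads in each DMSO library and 355 and 372 under Nutlin-3a (log2 fold change 5.05, SE 0.21).

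By absolute gain in CPM the list was led by abundant housekeeping transcripts as well as p53 targets. EEF1A1, the factor that delivers tRNA to the ribosome, stood at 8882 and 8623 CPM under DMSO and 11693 and 11226 CPM under Nutlin-3a (log2 fold change 0.39, SE 0.05), and EEF2, which moves the ribosome along, at 1866 and 1799 CPM under DMSO and 2785 and 2877 CPM under Nutlin-3a (log2 fold change 0.63, SE 0.05). NEAT1, the long noncoding RNA that builds paraspeckles, stood at 535 and 634 CPM under DMSO and 2011 and 1896 CPM under Nutlin-3a (log2 fold change 1.74, SE 0.08). The cytoplasmic actin gene ACTG1 (0.32, SE 0.05) and the collagen gene COL1A1 (0.35, SE 0.05) rose by less. In each of these genes the lower Nutlin-3a library lay above the higher DMSO library. Many pseudogenes resemble EEF1A1 and ACTG1 and may share their reads.

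**Figure D2:**
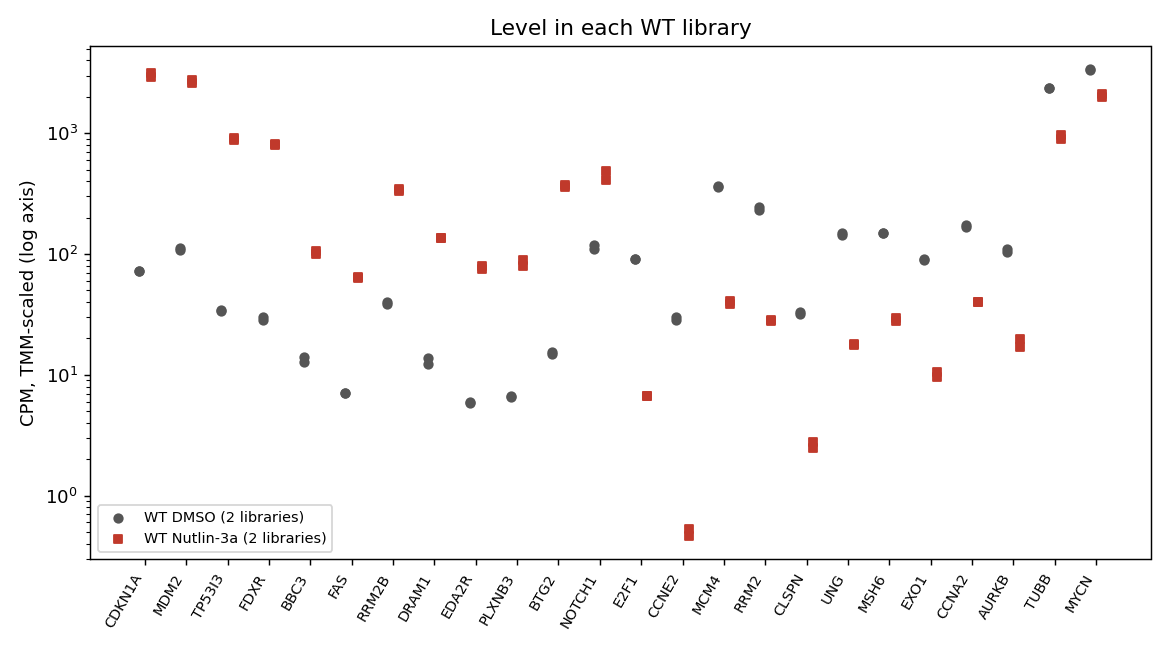
TMM-scaled CPM on a log axis for 24 genes in each WT library, with grey circles for the 2 DMSO libraries and red squares for the 2 Nutlin-3a libraries. Replicates lie close together beside the distance between the groups, and the naming rule required agreeing replicates and separate groups. CDKN1A goes from about 72 to about 3032 CPM and CCNE2 from 29.3 to 0.497 CPM (group means).

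Promoters were examined for the motifs linked to these 2 programmes, in RefSeq windows of 250 bases before to 50 after the annotated start (GRCh38.p14). Of 15879 tested genes, 12052 matched a window, and a gene counted where any of its windows held the motif on either strand. The p53 response element was taken as 2 decamers with a spacer of 0 or 1 base and up to 2 mismatches outside the invariant C and G of each decamer. It was found for 23 of 936 genes that rose at least 2-fold (2.46%, exact 95% interval 1.56 to 3.66), 11 of 172 that rose at least 8-fold (6.4%, 3.24 to 11.2), 4 of 689 that fell at least 2-fold (0.581%, 0.158 to 1.48) and 22 of 4708 that were not called (0.467%, 0.293 to 0.707). Of all 35116 RefSeq windows, 0.533% held it. A match describes the letters, not a bound site, and elements outside the window were not examined.

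Elements of 3 risen genes are shown with the 20-base match in capitals. MDM2 is at chr12:68808911-68808954 (plus strand), 94 to 75 bases before an annotated start, FAS at chr10:88991297-88991340 (plus strand), 122 to 103 bases before it, and PDE4C at chr19:18224639-18224682 (minus strand), 177 to 158 bases before it, each with 2 mismatches.
MDM2: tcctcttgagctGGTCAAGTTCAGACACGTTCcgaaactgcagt
FAS: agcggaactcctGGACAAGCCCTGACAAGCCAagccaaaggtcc
PDE4C: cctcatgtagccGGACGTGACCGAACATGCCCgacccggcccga
MDM2, FAS and PDE4C have several annotated starts, and the positions are those of the start whose window held the match.

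Cell cycle genes fell as a broad block. Of 30 genes that E2F and the DREAM complex control at the G1/S step, 29 were lower, 27 of them at least 2-fold, and 1 was higher, with a median log2 fold change of -2.66. CCNE2, which encodes cyclin E2, had 873 and 853 reads under DMSO and 16 and 13 under Nutlin-3a (log2 fold change -5.87, SE 0.15, edgeR adjusted p = 3.5e-16). E2F1, the activator of S phase genes, stood at 91.2 and 90.8 CPM under DMSO and 6.63 and 6.65 CPM under Nutlin-3a (log2 fold change -3.78, SE 0.07). MCM4, part of the replicative helicase, stood at 363 and 355 CPM under DMSO and 38.3 and 41.1 CPM under Nutlin-3a (log2 fold change -3.18, SE 0.05). CCNE2 was left with a few reads per library. Added after their values were seen, CCNE1 fell (-2.16, SE 0.11) and the helicase partner gene GINS2 fell by 3.0 on the log2 scale. The member that rose was E2F7 (1.39), which encodes an E2F repressor.

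The naming rule gave other large falls. WDR76, a substrate receptor of a ubiquitin ligase, stood at 61.8 and 59.5 CPM under DMSO and 3.03 and 3.41 CPM under Nutlin-3a (log2 fold change -4.24, SE 0.08), DTL, a ligase subunit that destroys licensing factors in S phase, at 149.9 and 157 CPM under DMSO and 15.5 and 17.9 CPM under Nutlin-3a (log2 fold change -3.20, SE 0.07), and ZNF367, a zinc finger factor, at 46.8 and 48.3 CPM under DMSO and 4.02 and 4.24 CPM under Nutlin-3a (log2 fold change -3.52, SE 0.09). FAM111B, a protease, had 280 and 250 reads, then 12 and 11, and the transcription factor gene MYB had 272 and 280, then 12 in each library. Each of these 5 genes fell at least 8-fold by the fit.

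Genes that copy chromatin and DNA methylation behind the fork fell in 26 of 28 cases, 17 at least 2-fold (median -1.18). ATAD2, a bromodomain cofactor of E2F, stood at 155 and 157 CPM under DMSO and 13.4 and 14.3 CPM under Nutlin-3a (log2 fold change -3.49, SE 0.07). CHAF1B, a subunit of the chaperone that loads new histones, stood at 44 and 46 CPM under DMSO and 5.27 and 5.18 CPM under Nutlin-3a (log2 fold change -3.10, SE 0.08), and UHRF1, which brings DNA methyltransferase to hemimethylated sites, at 274 and 276 CPM under DMSO and 50.002 and 53.1 CPM under Nutlin-3a (log2 fold change -2.41, SE 0.06). The 2 members that rose were the demethylase gene TET2 (0.55) and the methyltransferase gene DNMT3A (0.15), and 1 rose without DMSO replicate 1, without DMSO replicate 2 or without Nutlin-3a replicate 2. Nucleotide synthesis genes fell in 24 of 27 cases, 14 at least 2-fold (median -1.0), and none rose. RRM2, the S phase subunit of ribonucleotide reductase, stood at 232 and 246 CPM under DMSO and 28 and 28.2 CPM under Nutlin-3a (log2 fold change -3.09, SE 0.05), opposite to its paralog RRM2B. The thymidine kinase gene TK1 fell by 2.69 on the log2 scale.

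Repair genes of other pathways fell too. Of 28 genes of homologous recombination and the Fanconi anemia pathway, 25 fell, 20 at least 2-fold, and 1 rose (median -1.49). EXO1, which resects DNA ends, stood at 91.1 and 88.5 CPM under DMSO and 9.62 and 10.6 CPM under Nutlin-3a (log2 fold change -3.15, SE 0.08), and BARD1, a ubiquitin ligase subunit of homologous recombination, at 34 and 35.7 CPM under DMSO and 5.54 and 5.28 CPM under Nutlin-3a (log2 fold change -2.69, SE 0.09). The member that rose was RAD51C (0.76), and 2 rose without DMSO replicate 1. Mismatch and base excision repair fell in 16 of 23 cases, 7 at least 2-fold (median -0.30), led by the uracil glycosylase gene UNG at 151 and 144 CPM under DMSO and 18.1 and 17.6 CPM under Nutlin-3a (log2 fold change -3.04, SE 0.06). MSH6, a mismatch sensor, stood at 150.2 and 149 CPM under DMSO and 29.5 and 27.8 CPM under Nutlin-3a (log2 fold change -2.38, SE 0.05). NEIL3, a glycosylase that opens crosslinks, stood at 21.9 and 22.8 CPM under DMSO and 3.92 and 3.45 CPM under Nutlin-3a (log2 fold change -2.60, SE 0.12). These 3 genes fell at least 4-fold, while 3 other members rose by at most 0.56 (NEIL1).

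Checkpoint genes fell in 18 of 23 cases, 9 at least 2-fold, and 2 rose (median -0.85). The number that rose was 1 without DMSO replicate 2 and 4 without Nutlin-3a replicate 1. CLSPN, the adaptor through which ATR activates CHK1, stood at 31.7 and 33.4 CPM under DMSO and 2.77 and 2.48 CPM under Nutlin-3a (log2 fold change -3.63, SE 0.11), CHEK1, the kinase itself, at 85.6 and 88 CPM under DMSO and 25.6 and 21.9 CPM under Nutlin-3a (log2 fold change -1.87, SE 0.07), and the phosphatase gene CDC25A at 63 and 59.8 CPM under DMSO and 8.27 and 7.51 CPM under Nutlin-3a (log2 fold change -2.96, SE 0.08). ATM and ATR, the kinases at the head of the pathway, changed little, ATM at 0.19 and ATR at -0.16, and were added after their values were seen.

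Mitotic genes fell in all 26 cases, 24 of them at least 2-fold (median -1.46). AURKB, the kinase of the chromosomal passenger complex, stood at 105 and 110.5 CPM under DMSO and 19.7 and 17 CPM under Nutlin-3a (log2 fold change -2.55, SE 0.07). CCNA2, which encodes cyclin A2, stood at 167 and 174 CPM under DMSO and 39.7 and 40.1 CPM under Nutlin-3a (log2 fold change -2.09, SE 0.05), and KIF11, the motor that separates spindle poles, at 123 and 131 CPM under DMSO and 31.5 and 34.1 CPM under Nutlin-3a (log2 fold change -1.96, SE 0.06). All 27 centromere and kinetochore genes fell too, 22 at least 2-fold (median -1.50). The NDC80 complex subunits SPC25 (-2.0, SE 0.09) and SPC24 (-1.93, SE 0.12) and the centromere protein gene CENPM (-1.90, SE 0.08) led this list. Cohesin and condensin genes fell in 22 of 24 cases, 14 at least 2-fold (median -1.27). ESCO2, which acetylates cohesin in S phase, stood at 37.4 and 39.4 CPM under DMSO and 5.90 and 6.33 CPM under Nutlin-3a (log2 fold change -2.65, SE 0.09), CDCA5, the cohesin protector sororin, at 108 and 115 CPM under DMSO and 24.5 and 23.8 CPM under Nutlin-3a (log2 fold change -2.21, SE 0.06), and the condensin subunit gene NCAPH at 103 and 110.2 CPM under DMSO and 25.1 and 25.3 CPM under Nutlin-3a (log2 fold change -2.08, SE 0.06). The cohesin loader gene NIPBL (0.13) and ESCO1 (0.16) were not called.

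Promoters of fallen genes were searched for the E2F motif (TTTCCCGC, TTTCGCGC, TTTGCCGC or TTTGGCGC), the CHR (TTTGAA or TTCGAA) and the CCAAT box (CCAAT), each on both strands and each on its own, so that matches of different motifs may overlap. The E2F motif was in 110 of 689 genes that fell at least 2-fold (16%, exact 95% interval 13.3 to 18.9). The share was 3.21% of 936 genes that rose at least 2-fold (2.17 to 4.54), 5.18% of those not called and 6.22% of all 12052 genes, and 3.31% of all RefSeq windows held it. The CHR was in 23.9% of fallen genes (20.8 to 27.3), 16.2% of risen and 14.9% of uncalled genes, and in 16.4% of all windows. The CCAAT box was in 48.6% (44.8 to 52.4), 42.1% and 39.9%, and in 34.6% of all windows. Among the 118 genes that fell at least 4-fold, the E2F motif was in 20.3% (13.5 to 28.7), whereas the CHR (16.1%, 9.98 to 24.0) and the CCAAT box (42.4%, 33.3 to 51.8) were near their shares in all matched genes, 15.9% and 42.5%. With the bases after the start left out, the E2F share of fallen genes was 11.2% and that of risen genes 2.88%. Promoters of genes with more windows have more chances of a match, and the mean number of windows per gene was 1.43 in fallen, 1.51 in risen and 1.42 in uncalled genes.

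Examples from named genes that fell are shown with the match in capitals, to set their letters side by side. The E2F matches are those of E2F1 at chr20:33686386-33686417 (minus strand), DTL at chr1:212035728-212035747 (plus strand), CDC25A at chr3:48188442-48188473 (minus strand), UNG at chr12:109098097-109098128 (plus strand) and CDCA5 at chr11:65084066-65084097 (minus strand). They lie 20 to 13, 8 to 1, 44 to 37, 63 to 56 and 45 to 38 bases before the start, and the flanks of E2F1 and DTL end at the start.
E2F1: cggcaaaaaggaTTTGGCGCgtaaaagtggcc
DTL: gcgtgacgtcagTTTGGCGC
CDC25A: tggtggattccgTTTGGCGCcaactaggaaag
UNG: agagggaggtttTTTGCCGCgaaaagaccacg
CDCA5, E2F motif: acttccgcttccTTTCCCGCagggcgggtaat
The CHR matches are those of CDCA5 at chr11:65084049-65084078 (minus strand), KIF11 at chr10:92593090-92593119 (plus strand) and NEIL3 at chr4:177309838-177309867 (plus strand), which lie 26 to 21, 28 to 23 and 24 to 19 bases before the start. In KIF11 the capitals read as the reverse complement of the searched letters.
CDCA5, CHR: cagggcgggtaaTTCGAAcgttttttgcag
KIF11: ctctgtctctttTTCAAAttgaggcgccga
NEIL3: acgcgcgcgagaTTTGAAtttcctctgcgt
CDCA5 held both motifs, without overlap between them, and its fall is given above.

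**Figure D3:**
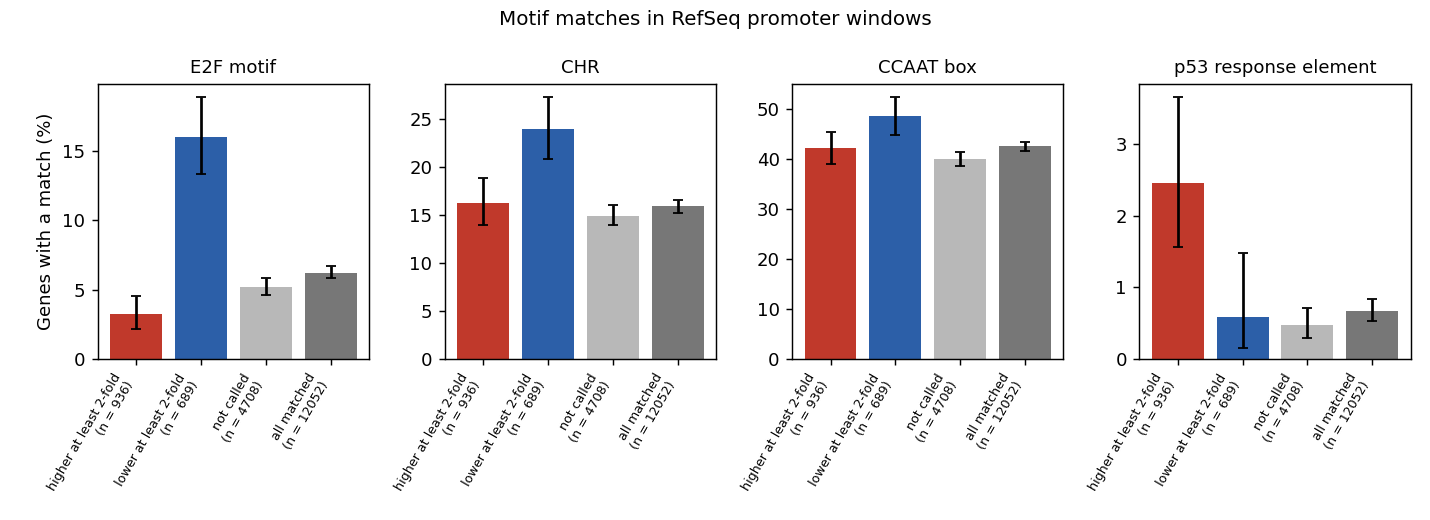
Bars give the percent of genes with at least 1 match in a RefSeq promoter window for 4 motifs, in genes that rose at least 2-fold (936), fell at least 2-fold (689) or were not called (4708) and in all matched genes (12052), with exact 95% binomial intervals and axes of different height. The E2F bar is highest in fallen genes (16%) and the p53 element bar in risen genes (2.46%).

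Lists of growth and processing machinery had medians nearer 0 than the cell cycle lists. Nuclear pore genes fell in 26 of 28 cases, 3 at least 2-fold (median -0.59), as for NUP155 (-1.26, SE 0.08), NUP85 (-1.05, SE 0.05) and NUP107 (-1.01, SE 0.05). Core spliceosome genes fell in 24 of 30 cases (median -0.37), led by the splicing factor gene SRSF2 at 793 and 823 CPM under DMSO and 472 and 433 CPM under Nutlin-3a (log2 fold change -0.84, SE 0.05) and the snRNP genes SNRPA1 (-0.83, SE 0.05) and SNRPB (-0.80, SE 0.05). Heat shock proteins and chaperonins fell in 20 of 26 cases (median -0.31). HSP90AA1, the inducible HSP90, stood at 3996 and 3956 CPM under DMSO and 2439 and 2396 CPM under Nutlin-3a (log2 fold change -0.72, SE 0.05). Across these 3 lists no member fell by more than 1.26 on the log2 scale, the value of NUP155.

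Several lists of small housekeeping proteins had small changes, and here the Nutlin-3a replicates differed with gene length. Genes with over 50 reads in DMSO replicate 1 were split into 5 bins by the length implied by the count and RPKM tables. In the shortest bin (up to 1896 bases), the median log2 ratio of Nutlin-3a replicate 2 over replicate 1 was -0.12, and in the longest bin (5640 bases and more) 0.11. Between the DMSO replicates it stayed between -0.01 and 0.01. Proteasome genes fell in 23 of 34 cases (67.6%, beside 29.2% of all tested genes). Their median was -0.17, with a median replicate ratio of -0.10. The number that fell was 15 without DMSO replicate 2. PSMB9, a subunit of the immunoproteasome, stood at 20.1 and 19.98 CPM under DMSO and 11.9 and 12.9 CPM under Nutlin-3a (log2 fold change -0.70, SE 0.11). The calls also went with length: 37.4% of the shortest bin were lower and 22.3% higher, against 31.7% and 37.3% of the longest. Genes of mitochondrial complex I fell in 14 and rose in 5 of 37 cases (median -0.08, replicate ratio -0.12). The share that fell, 37.8%, was near the 37.4% of the shortest bin, beside 29.2% of all tested genes. Of these, 8 fell without DMSO replicate 2, 3 rose without DMSO replicate 1 and 8 rose without Nutlin-3a replicate 2. The subunit gene NDUFA6 stood at 98.3 and 104 CPM under DMSO and 66.8 and 57.1 CPM under Nutlin-3a (log2 fold change -0.71, SE 0.07), and NDUFB10 (-0.52, SE 0.14, edgeR adjusted p = 0.0188) lost its call without DMSO replicate 2 (adjusted p = 0.0687). Among 79 genes with RPL or RPS symbols, 59 rose (74.7%) and 3 fell (3.8%), beside 29.4% and 29.2% of all tested genes. Their median was 0.26 and their replicate ratio -0.14. The part of the length difference in these counts was not tested.

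Genes that make or charge RNA for translation were called in both directions. Of 18 snoRNA host genes 7 rose (38.9%, beside 29.4% of all tested genes) and 5 fell (27.8%, near 29.2%), with GAS5 at 232 and 218 CPM under DMSO and 376 and 332 CPM under Nutlin-3a (log2 fold change 0.65, SE 0.06) and SNHG1 at 167 and 183 CPM under DMSO and 111 and 99.8 CPM under Nutlin-3a (log2 fold change -0.73, SE 0.06) in opposite directions. Their median replicate ratio was -0.15. Aminoacyl-tRNA synthetases fell in 9 and rose in 4 of 20 cases (median -0.07), and 4 fell without DMSO replicate 1. SARS, the seryl-tRNA synthetase, stood at 93.3 and 94.3 CPM under DMSO and 178 and 169.6 CPM under Nutlin-3a (log2 fold change 0.89, SE 0.05) and FARSB, a phenylalanyl-tRNA synthetase subunit, at 104 and 108 CPM under DMSO and 68.8 and 64.4 CPM under Nutlin-3a (log2 fold change -0.67, SE 0.05). RNA polymerase I and III genes fell in 11 (40.7%) and rose in 5 (18.5%) of 27 cases, beside the same shares of all tested genes (median -0.06). Without DMSO replicate 2, 3 rose. POLR3G, a polymerase III subunit of proliferating cells, stood at 25.1 and 27.2 CPM under DMSO and 11.8 and 12.7 CPM under Nutlin-3a (log2 fold change -1.10, SE 0.09).

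MYCN fell, as did many genes of its network. It stood at 1264 and 1246 RPKM under DMSO and 786 and 756 RPKM under Nutlin-3a (log2 fold change -0.71, SE 0.05, edgeR adjusted p = 3.4e-10), and both Nutlin-3a libraries were below both DMSO libraries. In the list of MYC partners and polyamine genes, 14 of 26 fell (53.8%, beside 29.2% of all tested genes), with a median of -0.28. The 7 that rose (26.9%) were near the 29.4% of all tested genes. SMS, spermine synthase, stood at 100.1 and 101.1 CPM under DMSO and 45.9 and 43.9 CPM under Nutlin-3a (log2 fold change -1.16, SE 0.05). Of the MYC antagonists, MXD1 stood at 6.97 and 6.71 CPM under DMSO and 16.6 and 18.3 CPM under Nutlin-3a (log2 fold change 1.35, SE 0.11) and MXD3 at 25.9 and 27.9 CPM under DMSO and 12.4 and 10.2 CPM under Nutlin-3a (log2 fold change -1.24, SE 0.10), so that these 2 relatives moved in opposite directions. DDX1, a helicase gene that lies near MYCN and is often amplified with it, fell slightly, at 9778 and 10085 CPM under DMSO and 8804 and 8499 CPM under Nutlin-3a (log2 fold change -0.20, SE 0.05). Its call was lost with limma-trend on log2(RPKM + 1) (adjusted p = 0.0528).

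Among neuroblastoma identity genes 9 of 22 fell (40.9%) and 3 rose (13.6%), beside 29.2% and 29.4% of all tested genes (median -0.24). TH, tyrosine hydroxylase, the first enzyme of catecholamine synthesis, stood at 243 and 244 RPKM under DMSO and 125 and 117 RPKM under Nutlin-3a (log2 fold change -1.02, SE 0.05). ISL1, a transcription factor of sympathetic neurons, stood at 15.3 and 13.9 CPM under DMSO and 8.27 and 8.48 CPM under Nutlin-3a (log2 fold change -0.81, SE 0.11). HAND2 (-0.04, adjusted p = 0.464) was not called by edgeR, and SLC6A2, the noradrenaline transporter gene added after its values were seen, fell from 107 and 92 reads to 26 and 34 (log2 fold change -1.70, SE 0.28). Of the matrix genes, COL1A1 rose (above) and LUM fell (-0.29, SE 0.05). COL3A1 (-0.13, SE 0.05, edgeR adjusted p = 0.0287) lost its call without DMSO replicate 1 (adjusted p = 0.182), without DMSO replicate 2 (adjusted p = 0.141) or without Nutlin-3a replicate 1 (adjusted p = 0.113).

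Guidance genes were called in both directions. Of 35 axon guidance genes 14 rose, 11 of them at least 2-fold, and 12 fell, 1 of them at least 2-fold (median 0.17). The share that fell, 34.3%, was near the 29.2% of all tested genes. The share that rose, 40.0%, was near the 37.3% of the longest of the 5 length bins, and these long genes (median 6377 bases) had a median log2 ratio of 0.10 between Nutlin-3a replicates 2 and 1, whose part in the count was not tested. SEMA3B, a secreted semaphorin, stood at 28.1 and 28.9 CPM under DMSO and 150.2 and 155 CPM under Nutlin-3a (log2 fold change 2.42, SE 0.06). EPHA2, a receptor for ephrins, stood at 137 and 132 CPM under DMSO and 383 and 418 CPM under Nutlin-3a (log2 fold change 1.57, SE 0.05), and the plexin gene PLXNA2 at 23.9 and 23 CPM under DMSO and 62.1 and 76.9 CPM under Nutlin-3a (log2 fold change 1.57, SE 0.11). Among synaptic vesicle genes 7 of 24 rose and 4 fell (median 0.38), with 2 falls without DMSO replicate 2 or without Nutlin-3a replicate 1. SNAP25, a SNARE of the nerve terminal, stood at 7.79 and 8.25 CPM under DMSO and 3.53 and 2.62 CPM under Nutlin-3a (log2 fold change -1.37, SE 0.15), and the active zone gene PCLO at 4.04 and 3.79 CPM under DMSO and 7.98 and 10.7 CPM under Nutlin-3a (log2 fold change 1.25, SE 0.14). The share of synaptic genes that rose, 29.2%, was near the 29.4% of all tested genes. The share that fell was 16.7%, beside 29.2% of all tested genes. Voltage-gated channel genes rose in 6 and fell in 6 of 19 cases, 31.6% each way and near the 29.4% and 29.2% of all tested genes, with 3 rises without DMSO replicate 2. SCN2A, a sodium channel, had 20 and 19 reads, then 255 and 269 (log2 fold change 3.76, SE 0.23).

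WNT pathway genes rose in 8 of 28 cases (28.6%, near the 29.4% of all tested genes), with a median of -0.08. They fell in 13 cases (46.4%, beside 29.2% of all tested genes), and 4 fell at least 2-fold. SFRP1 (-1.17, SE 0.14) and NKD1 (-1.16, SE 0.18), both inhibitors of the pathway, and the receptor gene FZD4 (-1.11, SE 0.16) were among those. AXIN2, a target and inhibitor of WNT signalling added after its values were seen, fell as well (-1.07). TGF-beta and BMP genes rose in 11 and fell in 11 of 34 cases (median -0.08), and each share, 32.4%, was near that of all tested genes. GDF15, a stress-induced ligand of that family and a p53 target, stood at 15.4 and 13.7 RPKM under DMSO and 715 and 659.5 RPKM under Nutlin-3a (log2 fold change 5.56, SE 0.08), while the activin subunit gene INHBE stood at 4.14 and 3.51 CPM under DMSO and 1.35 and 1.22 CPM under Nutlin-3a (log2 fold change -1.57, SE 0.26). BMP4 fell (-0.79, SE 0.18). Hedgehog and cilium genes rose in 13 (43.3%) and fell in 11 (36.7%) of 30 cases, beside 29.4% and 29.2% of all tested genes. Within that list the BBSome genes BBS4 (0.98, SE 0.07) and BBS1 (0.94, SE 0.07) rose, the coreceptor gene CDON fell (-0.94, SE 0.05), and GLI1, the output factor of the pathway added after its values were seen, fell (-2.28).

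Feedback inhibitors of MAPK signalling rose in 18 of 25 cases and fell in 4 (median 0.39). DUSP14, a phosphatase of MAP kinases, stood at 40.9 and 39 CPM under DMSO and 139.9 and 121 CPM under Nutlin-3a (log2 fold change 1.71, SE 0.06), and DUSP6, which acts on ERK, at 32.2 and 26.1 CPM under DMSO and 63.5 and 63.9 CPM under Nutlin-3a (log2 fold change 1.12, SE 0.09). DUSP9 moved the other way, at 15.7 and 14.2 CPM under DMSO and 6.39 and 5.0 CPM under Nutlin-3a (log2 fold change -1.39, SE 0.13). Clock genes fell in 13 (54.2%) and rose in 8 (33.3%) of 24 cases, beside 29.2% and 29.4% of all tested genes (median -0.35). BHLHE40, a repressor of the clock, stood at 21 and 21.5 CPM under DMSO and 88 and 85.3 CPM under Nutlin-3a (log2 fold change 2.03, SE 0.07). ARNTL2, a partner of CLOCK, stood at 30.1 and 27.2 CPM under DMSO and 8.11 and 8.12 CPM under Nutlin-3a (log2 fold change -1.82, SE 0.10), and HLF, a clock output factor, at 6.54 and 6.04 CPM under DMSO and 2.18 and 2.01 CPM under Nutlin-3a (log2 fold change -1.58, SE 0.16). ARNTL, the paralog of ARNTL2, rose (1.40) and was added after its values were seen.

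Cytidine deaminases of the APOBEC3 family, which edit viral and cellular DNA, were called in both directions. They were listed together with the ADAR enzymes. Of 9 tested APOBEC and ADAR enzymes 5 rose (55.6%, beside 29.4% of all tested genes) and 1 fell (11.1%, beside 29.2%). All 6 changed at least 2-fold, and 3 fell without Nutlin-3a replicate 2. Among the 5 was ADARB1 (1.06, SE 0.06), which is not an APOBEC gene and was added after its values were seen. APOBEC3C stood at 12 and 14.5 CPM under DMSO and 49 and 53.8 CPM under Nutlin-3a (log2 fold change 1.96, SE 0.09). APOBEC3D had 39 and 49 reads, then 171 and 199 (log2 fold change 2.09, SE 0.21), and APOBEC3G had 121 and 89, then 337 and 279 (log2 fold change 1.57, SE 0.16). APOBEC3B, added after its values were seen, stood at 18.4 and 19.5 CPM under DMSO and 7.45 and 7.48 CPM under Nutlin-3a (log2 fold change -1.34, SE 0.12). Its Nutlin-3a libraries lay below both DMSO libraries, and groups did not overlap in 76.2% of all tested genes. The APOBEC3 genes are close paralogs in a cluster, and reads that fit more than 1 of them could be split or dropped in the counting.

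**Figure D4:**
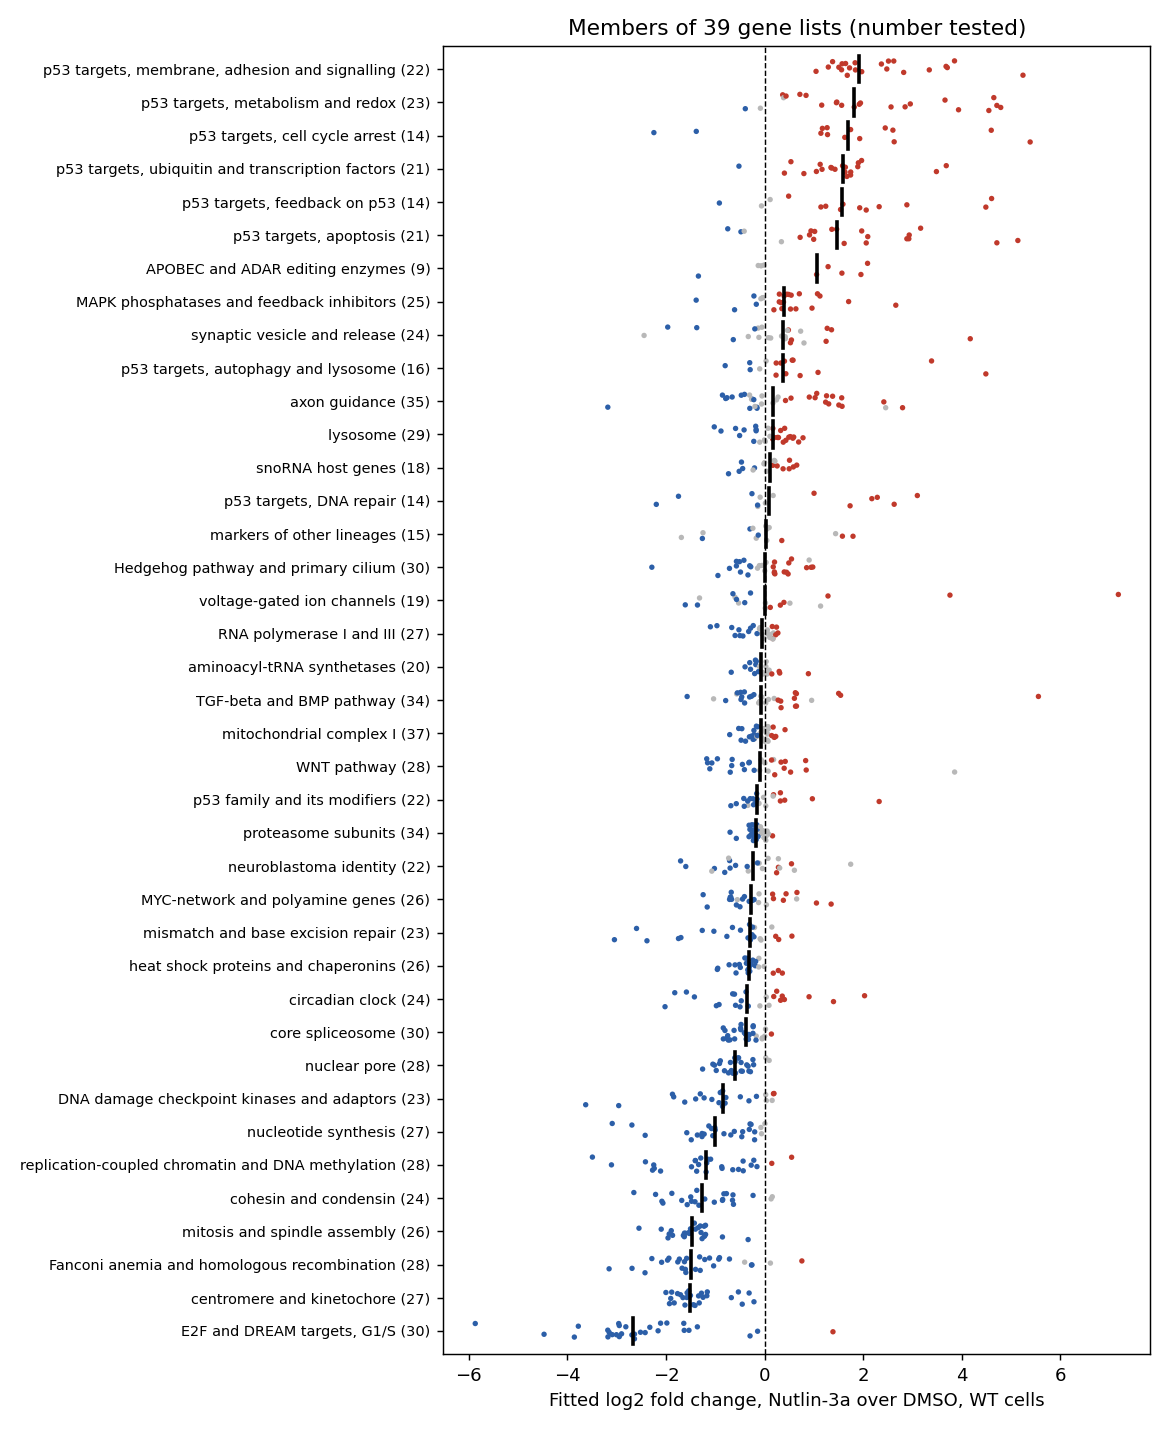
Every tested member of 39 gene lists by its fitted log2 fold change in WT cells, with red for called higher, blue for called lower and grey for not called; black bars are list medians and the dashed line is the median of all tested genes (0.02). The p53 target lists lie to the right, with a median of up to 1.91, and the cell cycle lists to the left, down to -2.66 for G1/S genes.

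By gene class, 17 of 57 tested genes with TRIM symbols rose at least 2-fold and 1 fell, beside the 8.3% and 5.77% of all genes. Genes with ZNF symbols rose in 183 (36.5%) and fell in 82 (16.4%) of 501 cases, beside 29.4% and 29.2% of all tested genes (median 0.16). Genes with symbols beginning TUBA, TUBB or TUBG fell in 14 (70.0%) and rose in 1 (5.0%) of 20 cases (median -0.54). Of all tested genes 29.2% fell and 29.4% rose. These prefixes are not limited to tubulins, since genes of the gamma-tubulin complex share them. TUBA1B, an alpha tubulin of dividing cells, stood at 1655 and 1635 CPM under DMSO and 571 and 485 CPM under Nutlin-3a (log2 fold change -1.64, SE 0.08), and TUBB at 2386 and 2378 CPM under DMSO and 975 and 904 CPM under Nutlin-3a (log2 fold change -1.34, SE 0.05). Tubulin genes are similar to each other, so single members are uncertain. Of 811 long noncoding RNA genes, 202 rose (24.9%, below the 29.4% of all tested genes) and 92 fell (11.3%, below 29.2%), 87 and 26 of them at least 2-fold (median 0.17). Scaling by other factors moved the median of all genes from 0.02 to at most 0.04.

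The WT response was set beside the Nutlin-3a response of the KO cells, with which it shares no library. The median absolute log2 fold change was 0.35 in WT and 0.20 in KO cells, and 2234 genes changed at least 2-fold in WT against 908 in KO cells. The difference between the responses was called for 4373 genes (27.5%) by edgeR's quasi-likelihood test, 2120 higher (13.4%) and 2253 lower (14.2%) in WT. In 4239 of the 4373 the difference had the sign of the WT change, which the contrast partly builds in. Among genes named for the size of this difference, which are a description, ELOVL2 stood at 5.05 in WT and 1.04 in KO cells (difference 4.02, SE 0.27, edgeR adjusted p = 8.4e-09), and NUPR1 at 5.89 and 2.95. Among falls, CCNE2 stood at -5.87 in WT and -1.93 in KO cells (difference -3.94, SE 0.21, edgeR adjusted p = 5.6e-10). TH fell in WT cells (-1.02) and rose in KO cells (0.29), and was among 130 tested genes called in opposite directions. The difference was not called for 30 of 143 named genes, such as BBC3 (2.94 and 3.10, edgeR adjusted p = 0.31), FAS (3.17 and 3.03, edgeR adjusted p = 0.443) and INPP5D (6.19 and 5.93, edgeR adjusted p = 0.346). The labels name 1 KO population, so its genotype and its other properties cannot be told apart.

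**Figure D5:**
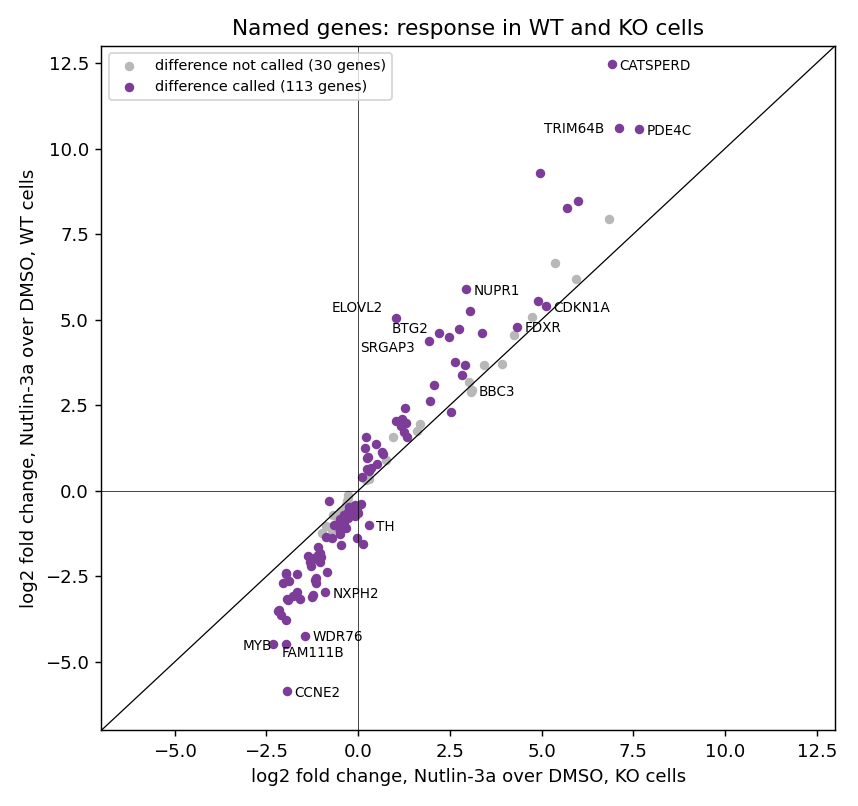
Each of 143 named genes by its log2 fold change in KO cells (horizontal) and WT cells (vertical), with purple for a called difference (113 genes) and grey for none (30 genes); the diagonal marks equal responses. Of the named genes, 136 lie farther from 0 in WT than in KO cells. Most were picked by their WT change and some for a larger WT response, which partly builds this in. Over all tested genes the difference was called for 27.5%. TH lies below 0 in WT and above 0 in KO cells.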

How the data were processed

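Poly(A) RNA of the 8 libraries was sequenced strand-specifically, per the labels, and the authors deposited a table of raw read counts per gene and a table of RPKM values made from the same counts. Per the submitters' processing notes, the tools included HTSeq 0.8.0, TopHat2 2.1.1 with Bowtie2 2.2.9.0, Picard 2.9.4 and SAMtools 1.5, and the build was GRCh37/hg19. The strand setting of the counting is not given in the sources used here. Reads that fit several near-identical genes can be split or dropped in such counts.

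The counts were tested with edgeR 4.0.16 in R 4.3.3: filterByExpr, TMM factors, and a robust quasi-likelihood fit of 4 group means over all 8 libraries (4 residual degrees of freedom), with Benjamini-Hochberg adjustment over 15879 genes at 0.05. The SE of a log2 fold change is its absolute value over the square root of F. RPKM served to compare genes with each other and, as log2(RPKM + 0.1) or log2(RPKM + 1), for limma 3.58.1 as an alternative to the count test. DESeq2 1.42.0 was another alternative, as were other scaling factors, other filters, a replicate block, a stricter threshold and each library left out in turn. On simulated counts with the real means and library sizes (15574 genes), 100 genes were changed 1.5-fold and 100 were changed 2-fold. The WT contrast called 86 of the former and 99 of the latter, with 17 unchanged genes called. Genes of low level were left out of the changed ones, so these rates cannot speak for all tested genes. The real data also differed from the simulation, with 58.6% of tested genes called and Nutlin-3a replicates that differed with gene length.

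Members and gene lists were chosen with earlier results of these data known. Of 971 distinct list genes, 966 matched by symbol, 3 by synonym and 2 not at all, and 916 were tested. The naming rule required replicate agreement, left out clone, antisense, microRNA and pseudogene names, and took the 10 largest called rises and falls where log2 CPM averaged 1 or more over the WT libraries. It further took the 8 largest gains and losses in CPM, 5 genes nearly silent under DMSO, up to 3 called genes per list, 4 genes in any case (MDM2, CDKN1A and MYCN among them) and 5 genes each way with the largest difference from the KO response. It gave 143 genes, some left out for length, and some items are not reported here. Promoter windows came from RefSeq (GRCh38.p14), a later build than that of the files, and were joined by gene. Figures were drawn with matplotlib 3.10.9, and exact binomial intervals, which cover counting error only, came from scipy 1.17.1.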

Additional observations from a re-analysis of the deposited data

Results flagged for a closer look

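The Nutlin-3a response of WT cells differed from that of KO cells for 4373 genes by edgeR's quasi-likelihood test of the difference with Benjamini-Hochberg adjustment (27.5% of those tested), and 11 named genes stood out for it. Differences are WT minus KO on the log2 scale. Among rises, the difference was 4.02 for ELOVL2, 2.95 for NUPR1, 2.91 for PDE4C, 2.44 for SRGAP3, which encodes a RAC-inactivating guidance protein, and 2.4 for BTG2. PDE4C rose strongly in both, at 10.57 in WT and 7.66 in KO cells. Among falls it was -3.94 for CCNE2, -2.79 for WDR76, -2.51 for MYB, -2.16 for FAM111B and -2.06 for NXPH2, which encodes a neurexin ligand. CCNE2 fell in both, at -5.87 and -1.93. TH was picked out among the named genes because it moved in opposite ways, with a difference of -1.31. It was not alone, as 130 of 15879 tested genes were called in opposite directions in WT and KO cells. SLC6A2, outside the naming rule, stood at -1.70 in WT and 2.03 in KO cells (edgeR adjusted p of the difference = 0.00023). These values were chosen for their size and are a description.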

How the results depend on the processing

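The split of 4673 higher and 4634 lower genes in WT cells kept within 1.5 times of these counts under all 20 alternatives, with 3864 to 4829 higher and 3840 to 4582 lower when each library was left out in turn and 3756 to 4950 higher and 3876 to 4761 lower otherwise. The counts at least 2-fold ran from 1234 to 1367 higher and 843 to 928 lower with a library left out. They were 565 higher and 443 lower with limma-trend on log2(RPKM + 1), where the added 1 shrinks fold changes of low genes. The difference between WT and KO responses was called for 3059 to 5337 genes with a library left out, and for 2744 at an adjusted p under 0.01. Without DMSO replicate 2 and Nutlin-3a replicate 1, 4425 genes were higher and 4054 lower. With the replicate number as a block, 4676 were higher and 4647 lower, and the deviations of same-numbered libraries correlated at -0.06 over 12978 genes, so that the numbers gave no sign of pairing. List genes numbered 264 higher and 468 lower, and with a library left out 231 to 265 and 421 to 464. Of 1248 counts within single lists, 61 moved by over 1.5 times, most of them counts of few genes. With the 250 bases before the start alone, the E2F share of fallen genes was 11.2% and the CHR share 18%. With all called genes in place of those changed at least 2-fold, they were 9.53% and 17.6%, and the p53 element share of risen genes was 1.02%. Named genes kept direction and call in 2135 of 2145 values, none reversed, and COL3A1, DDX1 and NDUFB10 lost the call in the other 10. The named genes were chosen from these same libraries as called and with agreeing replicates. Their stability therefore does not speak for called genes as a whole. Depth limited genes of few reads, where the median SE was 0.44 in the lowest of 5 level bins. Single genes named outside the naming rule were not recomputed under the alternatives.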

Other observations

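Genes of epithelia, which are not part of the sympathetic programme of this line, were among those that rose, and those named here were chosen after their values were seen. CLCA2, a membrane protein of stratified epithelia, stood at 0.0986 and 0.0351 CPM under DMSO and 6.79 and 8.09 CPM under Nutlin-3a (log2 fold change 6.70, SE 0.40). ABCA12, a lipid transporter of keratinocytes, had 4 and 3 reads under DMSO and 269 and 260 under Nutlin-3a (log2 fold change 6.21, SE 0.30). The desmosome gene DSC3 had 114 and 75, then 829 and 771 reads (log2 fold change 3.10, SE 0.13). In these 3 genes both Nutlin-3a libraries lay above both DMSO libraries, and groups did not overlap in 76.2% of all tested genes. The tight junction gene CLDN1 stood at 1.05 and 1.23 CPM under DMSO and 6.46 and 4.39 CPM under Nutlin-3a (log2 fold change 2.25, SE 0.24), and F11R, which encodes the junctional adhesion molecule JAM-A, at 0.559 and 0.527 CPM under DMSO and 8.14 and 7.94 CPM under Nutlin-3a (log2 fold change 3.88, SE 0.22). The epithelial markers EPCAM and CDH1 did not follow: EPCAM had 16 and 47 reads under DMSO and 48 and 17 under Nutlin-3a, and CDH1 had 13 and 7, then 55 and 0. Keratin genes of stratified epithelia did not rise either. KRT5 had 16 and 0 reads under DMSO and 0 and 0 under Nutlin-3a, KRT14 had 1 and 0, then 0 and 0, and KRT13 had 30 and 0, then 2 and 0.

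MKI67, LMNB1, HMGB2 and TERT fell, and they too were chosen after their values were seen. MKI67, the Ki-67 antigen, stood at 363 and 359 CPM under DMSO and 92.9 and 109.9 CPM under Nutlin-3a (log2 fold change -1.83, SE 0.08). LMNB1, which encodes lamin B1, stood at 209 and 218 CPM under DMSO and 44 and 44.4 CPM under Nutlin-3a (log2 fold change -2.27, SE 0.05), and the chromatin protein gene HMGB2 at 421 and 445 CPM under DMSO and 171 and 162 CPM under Nutlin-3a (log2 fold change -1.38, SE 0.05). TERT, the telomerase catalytic subunit, had 467 and 347 reads under DMSO and 116 and 119 under Nutlin-3a (log2 fold change -1.77, SE 0.15). Each of these 4 genes was lower in both Nutlin-3a libraries than in either DMSO library. Groups did not overlap in 76.2% of all tested genes, so such separation was common.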
